A study of Mus musculus with 6 samples.

Results

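The TGF-beta and BMP pathway genes are a list of 40 genes chosen by symbol for their function, out of 38924 genes in the count table: ligands, receptors, extracellular antagonists and binding proteins, Smad proteins and Id target genes. All 40 were found in the table by their Ensembl identifier, and 39 had enough reads to be tested; the exception was Grem1. RNA sequencing was done on CD49f+ epidermal cells of mouse, sorted by flow cytometry for this integrin subunit of the basal layer. The 3 K14-Cre+ libraries came from cells that were Rnaseh2b flox/flox and carried Cre under the keratin 14 promoter, which is active in basal keratinocytes, and the 3 K14-Cre- libraries from cells that were also Rnaseh2b flox/flox but had no Cre. The floxed allele is therefore shared by both groups. Cells keep the gene if neither they nor the cells they descend from used the keratin 14 promoter. The labels give no age, sex or animal for any library, so a p-value here sets the difference against the spread of these libraries, some of it perhaps technical.

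Proteins of the TGF-beta family are secreted dimers that bring together type II and type I receptor kinases on the target cell. The activated type I receptor phosphorylates Smad2 and Smad3 in the TGF-beta and activin arm, or Smad1 and Smad5 in the BMP arm. These then enter the nucleus with Smad4 and switch target genes, among them the Id genes for the BMP arm and the feedback inhibitors Smad6 and Smad7. In skin, TGF-beta restrains the growth of keratinocytes, and BMP signals act in epidermal differentiation and keep hair follicle stem cells at rest.

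Levels are given as CPM, counts scaled to the effective library size. Rnaseh2b, the targeted gene, had 5.29, 3.98 and 3.28 CPM in the Cre-positive libraries, against 21.8, 20.7 and 21.7 CPM in the Cre-negative libraries, lower in every library labelled K14-Cre+. Library totals ran from 23186065 to 31718094 counts in the Cre-positive group and from 22948779 to 25362538 in the Cre-negative group. Cre-positive replicate 3 stood apart from the others of its group: comparing counts gene by gene, chi-square divided by its degrees of freedom reached 70.4 and 48.4 against replicates 1 and 2, while the other pairs within a group gave 9.11 to 14.7. Cre-positive replicate 1 and Cre-negative replicate 3 held most RNA of fibroblast markers, with 1668, 354 and 404 summed CPM over 10 genes in the Cre-positive libraries and 360, 492 and 1084 in the Cre-negative ones. Keratinocyte markers dominated in every library, with the 7 basal markers at 16286 to 18146 summed CPM in the Cre-positive group and 16319 to 18923 in the Cre-negative group. Of these 7, Krt15 was lower without overlap (mean 1034 against 1957 CPM in the Cre-negative group). Itgb4 was higher without overlap (339 against 239 CPM), and the others overlapped. By DESeq2 Krt15 and Itgb4 had an adjusted p under 0.05, as did 6.05% of all genes, and by edgeR 0 of the 7 did. The 4 suprabasal markers, among them Krt1 and Krt10, summed to 99314 to 132776 CPM in the Cre-positive group and 78490 to 100372 CPM in the Cre-negative group, so that transcripts of differentiated cells were abundant in cells sorted for a basal surface protein. As read from Xist and Y-linked transcripts, Cre-positive replicates 1 and 2 and Cre-negative replicate 2 were male and the other libraries female, so that Cre-positive replicate 3 was the only female library of its group.

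Nbl1 was the 1 gene of the 39 tested that passed the threshold (adjusted p under 0.05 over all genes tested): it fell to 37.2 ± 3.20 CPM in Cre-positive cells, against 57.4 ± 1.69 CPM in Cre-negative cells (SD, n = 3 each). Nbl1 encodes a secreted BMP antagonist of the DAN family. The receptor genes Tgfbr2, Acvr1, Acvr2a and Bmpr2 had higher means in the Cre-positive group, and Id3, Id1 and Smad6, which BMP signals are known to induce, had lower ones, but none of these 7 passed. They are named because, like Nbl1, they had an unadjusted p under 0.05 by edgeR. That held for 8 of 39 members (20.5%), near the 18.8% of all genes tested. For the other 31 tested members, including all ligands and the Smads that carry the signal, the 95% interval of the log2 fold change included 0. The Id genes went both ways: Id2, among these 31, had a log2 fold change of 0.19. Id4, outside the 40, had one of 0.27, and neither passed by edgeR.

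The promoters below are shown because they belong to the gene that passed, Nbl1, and to Id3, Smad6 and Tgfbr2, which stood nearest to it or hold the motif that is rarest. They are RefSeq windows of 250 bases before to 50 bases after the start site (build GRCm38.p6, the same assembly as mm10), written 5′ to 3′ on the strand of the gene. The Nbl1 window is chr4:139092921-139093220 on the minus strand, Id3 chr4:136143572-136143871 on the plus strand, Smad6 chr9:64022010-64022309 on the minus strand and Tgfbr2 chr9:116175314-116175613 on the minus strand. Capitals mark matches on either strand to 3 motifs known to bind Smad proteins: the palindrome GTCTAGAC, which contains none of the others, the GC-rich GGCGCC, and the Smad box CAGAC, which on the opposite strand reads as its reverse complement.
Nbl1: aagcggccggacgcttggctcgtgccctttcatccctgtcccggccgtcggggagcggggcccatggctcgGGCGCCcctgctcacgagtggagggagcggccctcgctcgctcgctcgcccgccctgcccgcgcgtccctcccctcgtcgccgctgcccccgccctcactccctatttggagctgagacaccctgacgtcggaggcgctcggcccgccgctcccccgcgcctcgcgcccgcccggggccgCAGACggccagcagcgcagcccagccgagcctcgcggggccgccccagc
Id3: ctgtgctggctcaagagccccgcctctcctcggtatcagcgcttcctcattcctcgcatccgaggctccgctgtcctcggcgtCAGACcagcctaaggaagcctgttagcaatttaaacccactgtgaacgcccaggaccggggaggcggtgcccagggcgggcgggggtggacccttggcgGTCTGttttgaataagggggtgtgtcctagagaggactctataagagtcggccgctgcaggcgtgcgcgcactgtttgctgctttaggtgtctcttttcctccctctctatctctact
Smad6: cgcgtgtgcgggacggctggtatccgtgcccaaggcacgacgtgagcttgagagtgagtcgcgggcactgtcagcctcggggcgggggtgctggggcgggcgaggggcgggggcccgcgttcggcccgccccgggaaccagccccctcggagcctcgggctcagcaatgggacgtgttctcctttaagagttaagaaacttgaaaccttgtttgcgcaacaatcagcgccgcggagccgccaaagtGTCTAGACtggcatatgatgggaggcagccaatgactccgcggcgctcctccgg
Tgfbr2: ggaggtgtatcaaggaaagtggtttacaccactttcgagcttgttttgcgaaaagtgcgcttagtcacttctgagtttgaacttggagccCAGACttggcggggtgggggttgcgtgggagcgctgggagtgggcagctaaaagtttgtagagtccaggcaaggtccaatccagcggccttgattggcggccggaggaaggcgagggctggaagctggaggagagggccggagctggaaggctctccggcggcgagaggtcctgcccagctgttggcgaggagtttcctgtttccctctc

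The Nbl1 window held GGCGCC at -179 and CAGAC at 1, counted from 0 at the start site to the first base of the match. In the Id3 window CAGAC lay at -167 and its reverse complement at -68, and the Tgfbr2 window had CAGAC at -160. The Smad6 window held the palindrome GTCTAGAC at -4. Windows were found for 27 of the 40 members, and the window nearest to the 5′ end of the gene in the count table was used. That of Bmpr1b lay 187161 bases from this end and that of Bmpr1a 795 bases, and both enter the shares below. GTCTAGAC was in 1 of these 27 (3.70%) and in 0.213% of all 32851 windows, GGCGCC in 9 of 27 (33.3%) against 11.9%, and CAGAC in 11 of 27 (40.7%) against 49.6%. Base composition was not matched between the members and all windows, and a match is a run of letters, not a measured binding site. The count table places the 5′ end of Id3 325 bases from the RefSeq start used here, that of Nbl1 23 bases from it, and those of Smad6 and Tgfbr2 at it (0 bases).

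To compare genes, CPM was divided by the exon length of the gene in kilobases (RPKM). Among the ligands, Bmp7 was the most abundant, with a mean of 29.8 RPKM (26.4 to 36.1) in Cre-positive cells and 29.8 RPKM (28.2 to 31.3) in Cre-negative cells. Its lowest library lay above every library of any other ligand in both groups. Bmp2, Tgfb3 and Tgfb1 followed with 18.7, 16.5 and 10.6 RPKM in Cre-positive cells and 16.1, 21.6 and 12.2 RPKM in Cre-negative cells. The ranges of Bmp2 and Tgfb3 overlapped in the Cre-positive group (16.4 to 21.7 and 11.3 to 20.8) and not in the Cre-negative group (15.1 to 17.3 and 19.6 to 22.8). Inhbb, which encodes the beta B subunit of activins and inhibins, had 6.88 and 6.66 RPKM in Cre-positive and Cre-negative cells. Bmp4 and Tgfb2 overlapped each other in both groups, at 4.18 and 4.06 RPKM in Cre-positive cells and 6.28 and 6.24 RPKM in Cre-negative cells. The remaining ligand genes were low, with means from 0.447 RPKM (Bmp6) to 1.22 RPKM (Bmp3) in the Cre-positive group and from 0.632 RPKM (Bmp6) to 1.77 RPKM (Bmp3) in the Cre-negative group, with Inhba between them.

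On the receptor side the activin type I receptor gene Acvr1b led, with 39.6 RPKM in Cre-positive and 41.1 RPKM in Cre-negative cells, ahead of the BMP type I receptor gene Bmpr1a with 23.5 and 22.3 RPKM. Tgfbr1 had 7.80 and 7.76 RPKM, Acvr1 4.94 and 3.91 RPKM, and Bmpr1b 2.91 and 2.98 RPKM in Cre-positive and Cre-negative cells. Of the type II receptor genes, Bmpr2 and Tgfbr2 lay at 18.5 and 18.0 RPKM in Cre-positive cells and at 15.8 and 13.7 RPKM in Cre-negative cells, with ranges that met in the Cre-positive group (17.7 to 19.7 and 16.9 to 19.0). In the Cre-negative group they met only at their ends (14.3 to 17.3 and 12.4 to 14.4). Acvr2b, the least abundant type II receptor gene, had 3.20 and 3.34 RPKM. Fst, the gene of the activin-binding protein follistatin, had the highest mean of all members, with 52.1 RPKM (37.6 to 64.2) in Cre-positive cells and 47.0 RPKM (42.5 to 50.8) in Cre-negative cells. Grem1 was the lowest member in the Cre-negative group, with 0.376 RPKM in Cre-positive cells (0 to 1.10) and 0.0277 RPKM in Cre-negative cells. The BMP antagonist genes Nog and Chrd were near the lower end, with 0.556 and 0.366 RPKM in Cre-positive cells and 0.381 and 0.256 RPKM in Cre-negative cells. Smad4 and Smad5 were the most abundant Smad genes, at 23.0 and 19.1 RPKM in Cre-positive cells and 22.6 and 18.6 RPKM in Cre-negative cells. The metalloproteinase gene Bmp1 led the latent complex group with 28.2 and 30.6 RPKM in Cre-positive and Cre-negative cells, and Nbl1 had 18.3 and 28.2 RPKM. Among the Id genes, Id1 and Id3 lay at 12.7 to 17.3 and 10.7 to 12.8 RPKM in Cre-positive cells, ranges that met at their ends, and had means of 18.8 and 18.5 RPKM in Cre-negative cells.

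**Figure D1:**
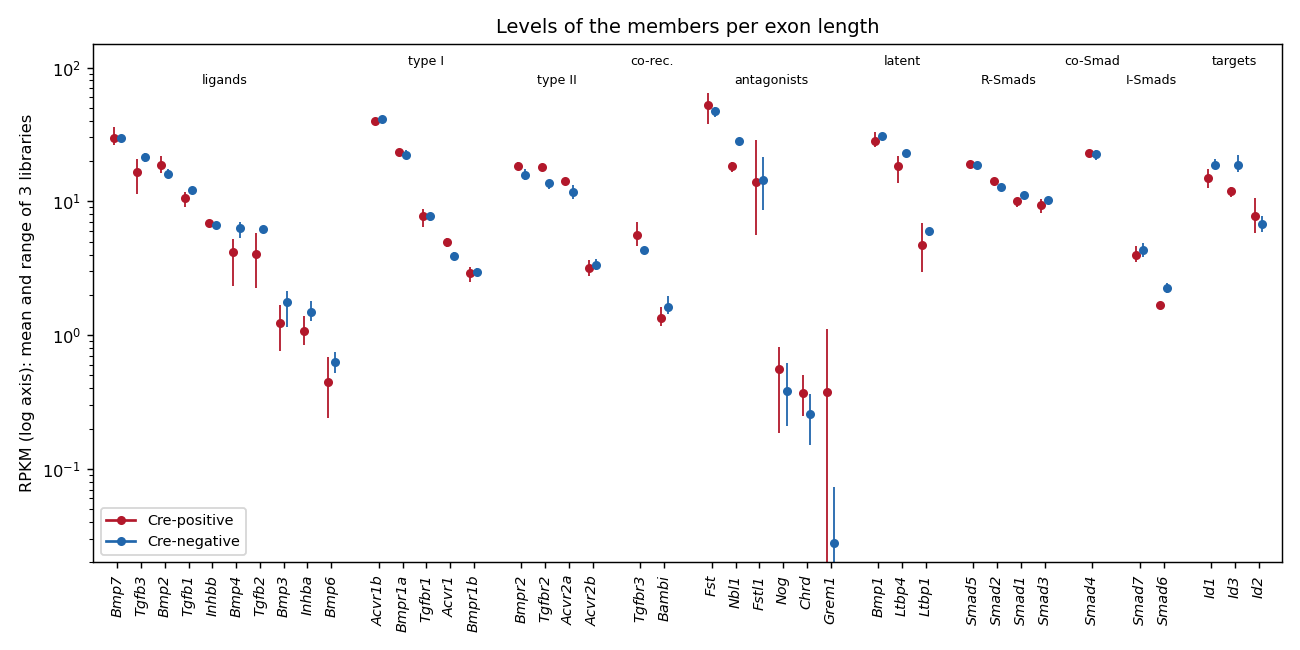
RPKM of each member on a log axis, by role, with the mean (point) and range (line) of the 3 Cre-positive (red) and the 3 Cre-negative (blue) libraries. Fst, Acvr1b and Bmp7 are high and Nog, Chrd and Grem1 low in both groups; libraries with 0 reads of Grem1 lie off the axis.

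By the quasi-likelihood test of edgeR, the members split into 0 that rose, 1 that fell and 38 short of the threshold, so that 2.56% of members were called, against 0.515% of all 15525 genes (63 higher and 17 lower). With so few calls this share rests on a single gene. An unadjusted p under 0.05 was found for 8 of 39 members (20.5%), against 18.8% of all genes, with 4 higher (10.3% of all genes were higher) and 4 lower (8.48% of all genes). The groups did not overlap for 15 members (38.5%), against 28.0% of all genes: 6 were higher in Cre-positive cells, against 14.1% of all genes, and 9 lower, against 13.8%. The median log2 fold change of the members was -0.053, against -0.0048 over all genes tested. DESeq2 called 3 of the 38 members for which it gave an adjusted p (7.89%, against 6.05% of all genes): Nbl1, Tgfbr2 and Id3. Limma-voom called Nbl1 only (0.425% of all genes), as did edgeR with sex as a covariate (0.271% of all genes).

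**Figure D2:**
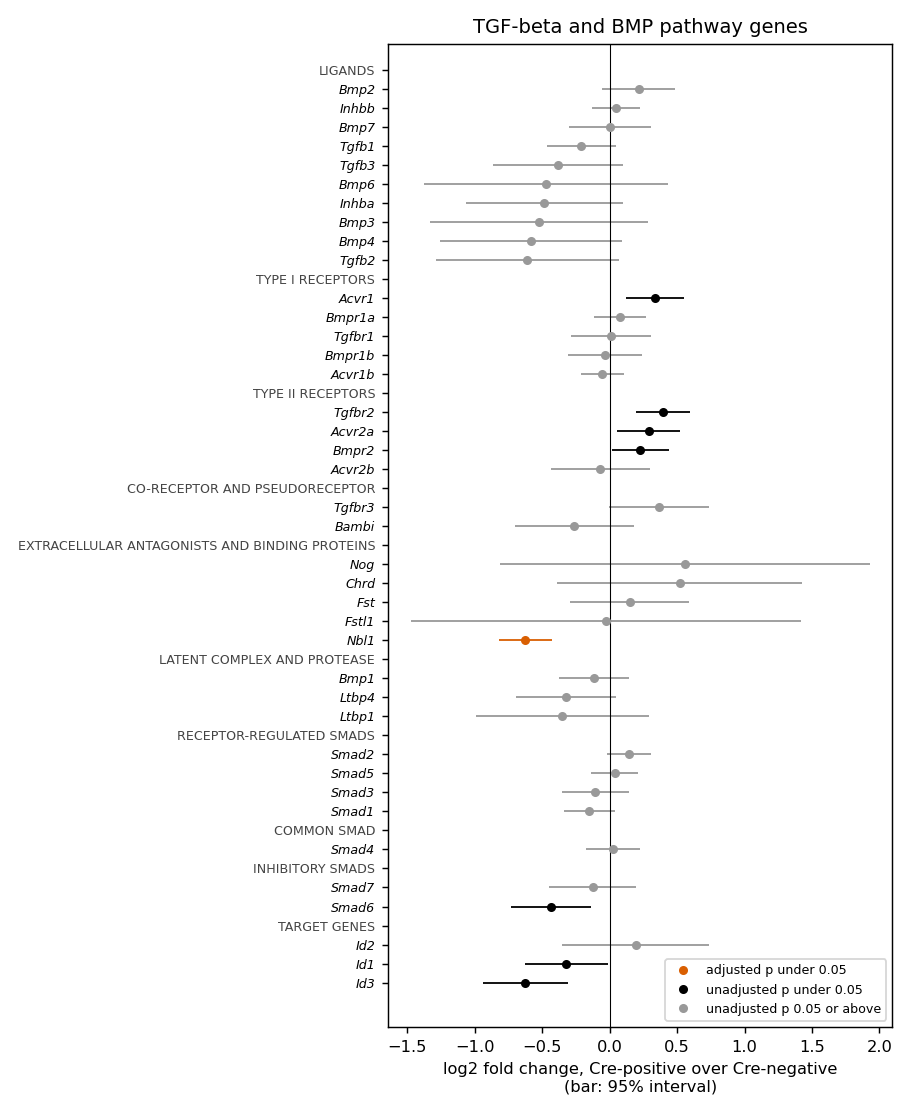
Log2 fold change of the 39 tested members, Cre-positive over Cre-negative, with 95% intervals and grouped by role. Nbl1, in orange, passed the threshold at -0.62; the genes in black had an unadjusted p under 0.05 only, and the 4 of them among the receptors lie to the right of 0 while Smad6, Id1 and Id3 lie to the left.

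Nbl1 (ENSMUSG00000041120) lies on chromosome 4 from 139082284 to 139092993 on the minus strand of mm10. It had 40.3, 37.5 and 33.9 CPM in the Cre-positive libraries, against 56.8, 59.3 and 56.1 CPM in the Cre-negative libraries. All 3 Cre-positive libraries lay below all Cre-negative ones, and the gap between the groups was wider than the spread within either. The counts behind these values were 1310, 847 and 713 in the Cre-positive libraries and 1415, 1443 and 1473 in the Cre-negative ones. The log2 fold change was -0.62 (SE 0.08, 95% interval -0.82 to -0.43, edgeR adjusted p = 0.0378), which is a fold of 0.649. Without Cre-positive replicate 3, which stood apart, the adjusted p was 0.0110, in a fit that called 422 genes. The call ended without Cre-positive replicate 1 or 2 (edgeR adjusted p = 0.0569 and 0.139), without Cre-negative replicate 1, 2 or 3 (0.235, 0.214 and 0.193) and with scaling by total count alone (0.0866), while the log2 fold change stayed between -0.73 and -0.56.

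Lists of cell type markers differed between the groups as well, and their part in the fall of Nbl1 was not tested. Melanocyte markers summed to 688, 694 and 595 CPM in the Cre-positive libraries and 333, 388 and 353 CPM in the Cre-negative ones, with 5 of 6 genes higher past the threshold. The 6 hair follicle markers, 0 of which passed, summed to 1867, 1941 and 1347 CPM in the Cre-positive libraries, against 2436, 2374 and 2408 CPM in the Cre-negative ones. Krt17 and Krt79 made up most of this sum, with 885 and 752 CPM in Cre-positive replicate 1. These genes and Sox9 were lower without overlap, and Lgr5 and Lhx2 were lower with overlap. Cd34 leaned the other way (log2 fold change 0.52, SE 1.02). The 4 T cell markers summed to 6.36, 6.51 and 5.46 CPM in Cre-positive libraries, against 14.8, 11.1 and 12.1 CPM in Cre-negative ones, with 0 past the threshold. The 7 myeloid and Langerhans cell markers summed to 84.5, 81.0 and 67.2 CPM in Cre-positive libraries, against 135, 102 and 97.7 CPM in Cre-negative ones, but its genes went both ways: by edgeR H2-Ab1 fell (log2 fold change -2.29, adjusted p = 0.0400) and Lyz2 rose (1.33, adjusted p = 0.0368). The 3 Schwann cell markers, led by Sox10, summed to 41.2, 38.7 and 55.6 CPM in Cre-positive libraries, against 28.8, 32.7 and 31.0 CPM in Cre-negative ones. None of these 5 lists overlapped between the groups, and their most abundant genes were Dct, Krt17, Cd3g, Csf1r and Sox10. The lists for dermal papilla (13.2 to 64.0 CPM in Cre-positive and 20.1 to 44.6 CPM in Cre-negative libraries, led by Wif1), endothelium (2.48 to 29.8 and 3.37 to 26.0 CPM, led by Kdr) and pericytes and smooth muscle (6.06 to 17.7 and 5.94 to 21.4 CPM, led by Acta2) overlapped. Within the dermal papilla list Sox18 was lower without overlap (log2 fold change -1.51, edgeR adjusted p = 0.176, DESeq2 adjusted p = 0.0180). Wif1 leaned higher with overlap (0.68, SE 0.46). In sorted bulk samples, fewer cells of a type and less RNA per cell cannot be told apart.

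The other extracellular antagonists and binding proteins showed no change that passed. Fst had 127, 150 and 87.8 CPM in Cre-positive libraries and 99.3, 119 and 111 CPM in Cre-negative libraries, and Cre-positive replicates 2 and 3 were its highest and lowest values. Nog and Chrd, which hold BMPs away from their receptors, gave 0.56 (SE 0.58) and 0.52 (SE 0.39) on the log2 fold change scale, with between 0.354 and 1.57 CPM and between 1.46 and 2.95 CPM in Cre-positive libraries, against 0.401 to 1.18 and 0.882 to 2.13 CPM in Cre-negative libraries. At this depth the 95% interval for Nog reached from -0.82 to 1.93, which leaves its direction undetermined. Grem1, a further BMP antagonist, was counted 149, 0 and 2 times in the Cre-positive libraries, against 1, 0 and 8 times in the Cre-negative ones. Its reads came almost wholly from Cre-positive replicate 1, and the count filter removed it.

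Fstl1, which encodes a secreted glycoprotein related to follistatin and is abundant in mesenchymal cells, had the largest standard error among the tested members. It had 140, 39.5 and 27.4 CPM in Cre-positive libraries and 42.2, 64.3 and 105 CPM in Cre-negative libraries. The high libraries were Cre-positive replicate 1 and Cre-negative replicate 3, those with the highest summed level of fibroblast markers. The part of these cells in the values of Fstl1 was not tested. Its log2 fold change was -0.028 (SE 0.61), with a 95% interval from -1.47 to 1.42, and ran from -1.08 to 0.38 as single libraries were left out.

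**Figure D3:**
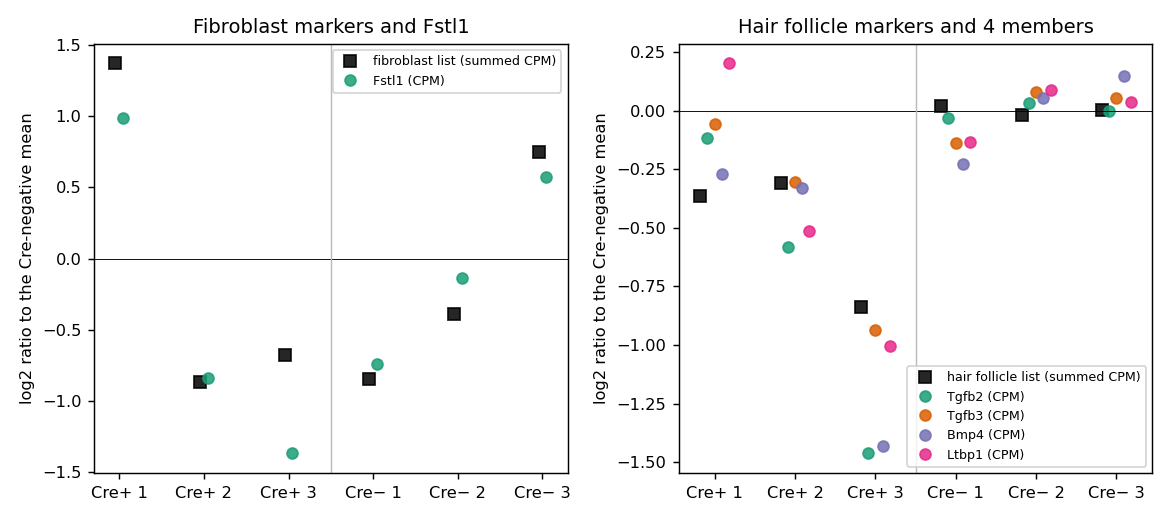
Log2 ratio of each library to the Cre-negative mean, for Fstl1 beside the summed CPM of 10 fibroblast markers (left) and for Tgfb2, Tgfb3, Bmp4 and Ltbp1 beside the summed CPM of 6 hair follicle markers (right). Fstl1 and the fibroblast list are both highest in Cre-positive replicate 1 (0.99 and 1.37), and the hair follicle list and the 4 members are lowest in Cre-positive replicate 3 (-0.84 for the list). The 4 are a selection: this library was the lowest for 16 of 39 members (41.0%), against 31.1% of all genes. In Cre-positive replicate 1 the list stood at -0.37, but Tgfb2 at -0.12, Tgfb3 at -0.056, Bmp4 at -0.27 and Ltbp1 at 0.20.

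Of the 10 ligand genes 7 had a negative log2 fold change, with a median of -0.43 over the 10, but 0 passed the threshold by edgeR, DESeq2 or limma-voom and 0 had an unadjusted p under 0.05. Tgfb2 had 27.2, 19.7 and 10.7 CPM in Cre-positive libraries, against 28.8, 30.1 and 29.5 CPM in Cre-negative libraries. The Cre-negative libraries lay close together, and the Cre-positive ones were all lower but spread over more than the difference between the group means (log2 fold change -0.61, SE 0.29, edgeR adjusted p = 0.303). Bmp4 had 11.6, 11.1 and 5.18 CPM in Cre-positive libraries, against 11.9, 14.5 and 15.5 CPM in Cre-negative libraries (log2 fold change -0.58, SE 0.29). Its groups were separate by a narrow margin, with Cre-positive replicate 3 far below the rest. Tgfb3 had 70.3, 59.2 and 38.2 CPM in Cre-positive libraries and 66.4, 77.1 and 75.8 CPM in Cre-negative libraries, where the groups overlapped. Cre-positive replicate 3 was the lowest library for all 3 of these genes, named here after their values were seen, and it was the lowest of the 6 for 16 of 39 members (41.0%), against 31.1% of all genes. The same library had the lowest sum of hair follicle markers, 1347 CPM, and the part of these cells in the ligand values was not tested. As single libraries were left out, the log2 fold change of Tgfb2 ran from -0.95 (without Cre-positive replicate 1, edgeR adjusted p = 0.120) to -0.32 (without Cre-positive replicate 3). That of Bmp4 ran from -0.77 to -0.30, without the same libraries.

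Tgfb1 had 30.0, 28.1 and 23.0 CPM in Cre-positive libraries, against 30.1, 31.9 and 31.9 CPM in Cre-negative libraries. Its groups were separate by a narrow margin (log2 fold change -0.21, SE 0.11, edgeR adjusted p = 0.343). Bmp2 leaned the other way, with 58.3, 63.8 and 77.0 CPM in Cre-positive libraries and 53.5, 61.6 and 56.2 CPM in Cre-negative libraries (log2 fold change 0.22, SE 0.12). Bmp7 had 106, 109 and 145 CPM in Cre-positive libraries and 113, 120 and 126 CPM in Cre-negative libraries, where the Cre-negative values lay inside the Cre-positive range, with a 95% interval for the log2 fold change from -0.30 to 0.31. Inhbb was as close, at 29.3 ± 1.48 and 28.3 ± 1.10 CPM in Cre-positive and Cre-negative cells, and its interval, from -0.13 to 0.23, was the narrowest among the ligands; the sign of Bmp7 and Inhbb turned with total count scaling. Bmp3, Bmp6 and Inhba, the low ligand genes, had log2 fold changes of -0.52, -0.47 and -0.48 with standard errors of 0.34, 0.38 and 0.25.

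The 4 type II receptor genes had a median log2 fold change of 0.26 and the 5 type I receptor genes one of 0.0090, and 0 of these 9 passed by edgeR. Tgfbr2, the type II receptor that binds TGF-beta itself, had 91.1, 80.9 and 86.1 CPM in Cre-positive libraries, against 59.5, 67.9 and 68.7 CPM in Cre-negative libraries. The groups did not overlap (log2 fold change 0.40, SE 0.09, edgeR adjusted p = 0.101), and DESeq2 called the gene (adjusted p = 0.00542) while limma-voom did not (0.102). Acvr1, a type I receptor of the BMP arm, had 25.6, 21.9 and 24.0 CPM in Cre-positive libraries, against 17.7, 18.9 and 20.1 CPM in Cre-negative libraries, again without overlap (log2 fold change 0.34 with an SE of 0.09, edgeR adjusted p = 0.149). Acvr2a, a type II receptor for activins and BMPs, had 80.7, 78.2 and 84.0 CPM against 64.7, 75.4 and 58.8 CPM in Cre-negative libraries (log2 fold change 0.29, SE 0.10). Exons of Orc4, which runs antisense, take up 7.84% of the length counted for Acvr2a, and without a stated strand setting their reads cannot be told apart there. Bmpr2, the BMP type II receptor, had 64.1, 62.8 and 70.0 CPM in Cre-positive libraries and 55.8, 61.5 and 50.9 CPM in Cre-negative libraries, with little room between the groups (log2 fold change 0.23, SE 0.09). The adjusted p of Acvr2a and Bmpr2 was 0.206 and 0.242 by edgeR.

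Acvr1b had 168, 175 and 177 CPM in Cre-positive libraries and 177, 185 and 177 CPM in Cre-negative libraries, which lay almost level. It and Bmpr1a, the most abundant type I receptor genes, had log2 fold changes of -0.053 (95% interval -0.21 to 0.11) and 0.075 (-0.12 to 0.27). Both intervals include 0, and they do not cover the choice of scaling. Tgfbr1, Bmpr1b and Acvr2b had 0.0090, -0.033 and -0.068, with standard errors of 0.13, 0.12 and 0.16, and the sign of Bmpr1a and Tgfbr1 turned with total count scaling. The co-receptor gene Tgfbr3, whose product presents TGF-beta to its receptors, had 33.2, 30.1 and 45.9 CPM in Cre-positive libraries, against 26.6, 29.5 and 28.7 CPM in Cre-negative libraries. Its groups were separate, with Cre-positive replicate 3 far above the rest (log2 fold change 0.37 with an SE of 0.16, edgeR adjusted p = 0.272). Leaving that library out gave a log2 fold change of 0.17. Bambi, a pseudoreceptor that lacks a kinase domain and dampens signalling, had 6.79 ± 1.20 CPM in Cre-positive cells and 8.17 ± 1.53 CPM in Cre-negative cells (SD, n = 3 each), with overlap.

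**Figure D4:**
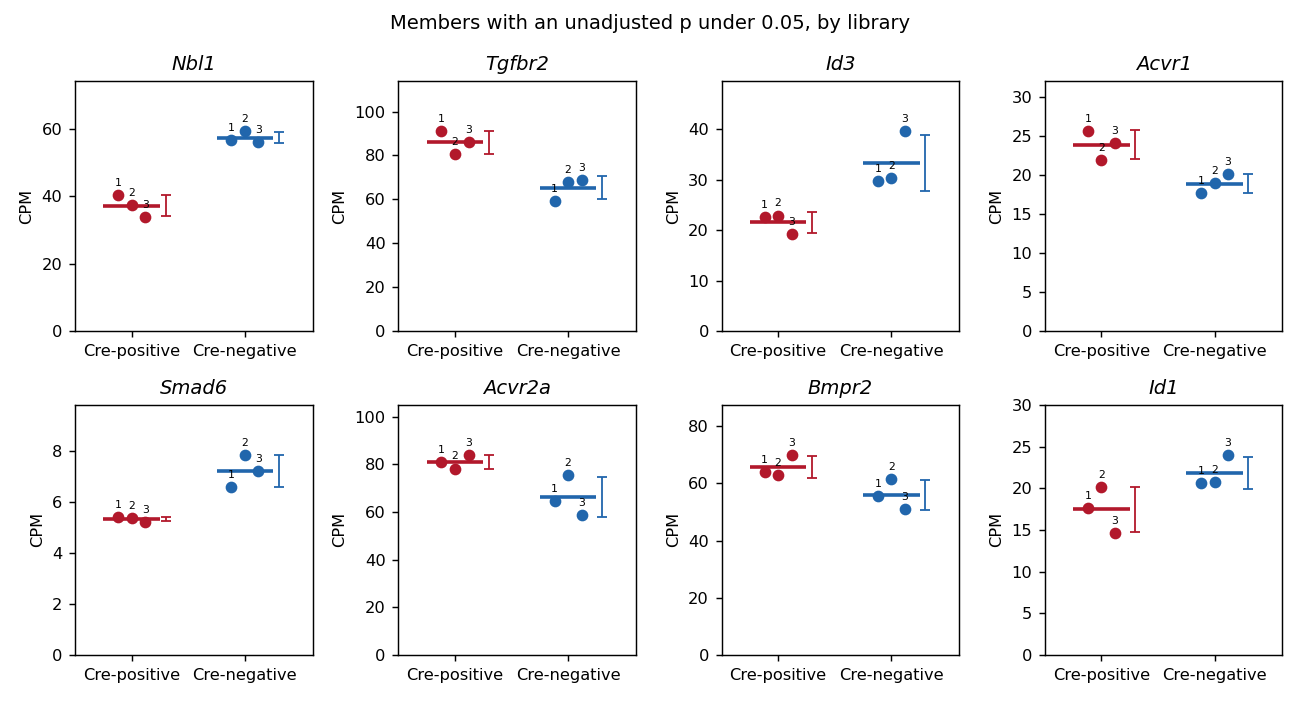
CPM of the 8 members with an unadjusted p under 0.05, for the 3 Cre-positive (red, left) and the 3 Cre-negative (blue, right) libraries, numbered by replicate, with the group mean (line) and SD (bar). In all 8 panels the groups do not overlap. The panels were picked by p from these same libraries, which favours such groups, and 28.0% of all genes tested did not overlap. The gap is widest relative to the spread for Nbl1, and narrow for Bmpr2, Id1 and Acvr2a.

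Id genes encode proteins that block basic helix-loop-helix transcription factors and are used as readouts of BMP signalling. Id3 had 22.6, 22.9 and 19.2 CPM in Cre-positive libraries, against 29.8, 30.3 and 39.6 CPM in Cre-negative libraries. Its groups were well apart, with Cre-negative replicate 3 the highest library (log2 fold change -0.62, SE 0.13, edgeR adjusted p = 0.101; DESeq2 adjusted p = 0.00477; limma-voom adjusted p = 0.106). The size of the difference was that of Nbl1, a fold of 0.649 for each, but the spread between libraries was larger. Id1 had 17.6, 20.1 and 14.7 CPM in Cre-positive libraries and 20.6, 20.7 and 24.0 CPM in Cre-negative libraries, where the margin between the groups was narrow (log2 fold change -0.32, SE 0.13, edgeR adjusted p = 0.250). Id2 did not follow, with 13.3, 7.35 and 8.79 CPM in Cre-positive libraries and 7.46, 8.54 and 9.89 CPM in Cre-negative libraries. Its highest library was Cre-positive replicate 1, and without that library the log2 fold change of 0.19 (SE 0.23) turned to -0.098.

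Smad6, which inhibits BMP receptors and is itself a BMP target, had 5.41, 5.36 and 5.23 CPM in Cre-positive libraries, against 6.58, 7.84 and 7.19 CPM in Cre-negative libraries. The Cre-positive values lay close together below all Cre-negative ones (log2 fold change -0.43, SE 0.13, edgeR adjusted p = 0.165). These rest on 176, 121 and 110 counts in the Cre-positive libraries and 164, 191 and 189 counts in the Cre-negative ones. Smad7, the inhibitory Smad of both arms, had 21.0, 17.2 and 15.9 CPM in Cre-positive libraries and 17.5, 22.2 and 19.4 CPM in Cre-negative libraries, with overlap. Of the signal-carrying Smad genes none passed: Smad2 had a log2 fold change of 0.14 (SE 0.07), Smad3 -0.11 (SE 0.11), Smad1 -0.15 (SE 0.08), Smad5 0.038 (SE 0.07) and Smad4 0.023 (SE 0.08). With total count scaling the sign of Smad4 and Smad5 turned. Smad5 had 147, 136 and 141 CPM in Cre-positive libraries and 132, 146 and 136 CPM in Cre-negative libraries. Smad4 had 86.1, 81.8 and 88.1 CPM against 75.7, 89.9 and 86.5 CPM in Cre-negative libraries. For Smad4 and Smad5, whose groups overlapped, the 95% intervals, -0.18 to 0.22 and -0.14 to 0.21, lay on both sides of 0. The groups were separate for Smad2, higher in Cre-positive cells at 50.1 ± 2.22 CPM against 45.3 ± 1.51 CPM in Cre-negative cells, and for Smad1, lower at 58.1 ± 5.05 against 64.5 ± 0.990 CPM (edgeR adjusted p = 0.313 and 0.356).

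Latent TGF-beta binding proteins hold the ligand in the extracellular matrix. Ltbp4 had 126, 89.1 and 141 CPM in Cre-positive libraries, against 150, 149 and 146 CPM in Cre-negative libraries. The Cre-negative values were nearly equal, and Cre-positive replicate 2 was far below the rest (log2 fold change -0.32 with an SE of 0.16, edgeR adjusted p = 0.321), and without that library the log2 fold change was -0.15. Ltbp1 had 72.0, 43.9 and 31.2 CPM in Cre-positive libraries and 57.2, 66.7 and 64.2 CPM in Cre-negative libraries, so that Cre-positive replicate 1 was the highest and replicate 3 the lowest of all 6. Bmp1, which despite its name is a metalloproteinase that cleaves procollagens and the BMP antagonist chordin, had 98.1, 95.7 and 124 CPM in Cre-positive libraries and 116, 116 and 113 CPM in Cre-negative libraries. Cre-positive replicate 3 was its highest library and the other two of that group its lowest (log2 fold change -0.12, SE 0.11).

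Of 56 further genes of the pathway, 46 were tested. By edgeR 0 rose and 0 fell, with 12 at an unadjusted p under 0.05 (26.1%, against 18.8% of all genes), 0 by limma-voom and 5 by DESeq2 (11.6% of the 43 with an adjusted p, against 6.05% of all genes). Their groups did not overlap for 13 of 46 (28.3%), against 28.0% of all genes, and the median log2 fold change was -0.054. The smallest p was that of Tgif2, a repressor that binds Smad proteins, with 20.4, 20.2 and 17.4 CPM in Cre-positive libraries and 25.6, 26.3 and 29.0 CPM in Cre-negative libraries (log2 fold change -0.48, SE 0.09, edgeR adjusted p = 0.0865). An antisense gene, 5430405H02Rik, shares 22.9% of its exon length. Rgma, a BMP co-receptor gene, had 132, 133 and 144 CPM in Cre-positive libraries and 171, 177 and 168 CPM in Cre-negative libraries (log2 fold change -0.34, SE 0.07, edgeR adjusted p = 0.0971), and the antisense gene A730056A06Rik shares 5.82% of its exon length. Both were lower in every Cre-positive library.

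Higher in Cre-positive cells were Itgav, the integrin alpha V gene whose product takes part in the release of latent TGF-beta, and Skil and Smurf1, which encode a Smad co-repressor and a ubiquitin ligase that acts on Smads and receptors. Itgav had 66.9, 59.4 and 56.7 CPM in Cre-positive libraries and 46.9, 48.0 and 46.8 CPM in Cre-negative libraries (log2 fold change 0.37, SE 0.08, edgeR adjusted p = 0.101). Skil had a log2 fold change of 0.35 (SE 0.09) and Smurf1 one of 0.37 (SE 0.11), both without overlap between the groups and neither past the threshold (edgeR adjusted p = 0.132 and 0.170). Acvr1c, the type I receptor for Nodal, was low throughout, supported by 65, 43 and 45 reads in the Cre-positive libraries, against 9, 24 and 26 reads in the Cre-negative ones (log2 fold change 1.36 with an SE of 0.36, edgeR adjusted p = 0.144). Without Cre-positive replicate 3, edgeR called 4 of these genes, Rgma, Itgav, Tgif2 and Ctgf, and 422 of all 15935 genes tested in that fit (2.65%), against 80 with all libraries. The 5 genes that DESeq2 called were Rgma, Tgif2, Itgav, Acvr1c and Skil. Among 13 further target genes 0 passed by edgeR. An unadjusted p under 0.05 was found for 2 of the 13, Ctgf and Id4, against 18.8% of all genes. Both were higher in Cre-positive cells (log2 fold change 0.43, SE 0.13, and 0.27, SE 0.09), unlike Id1 and Id3. The antisense genes Gm15270 and A330033J07Rik share 23.2% and 10.3% of their exon lengths.

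**Figure D5:**
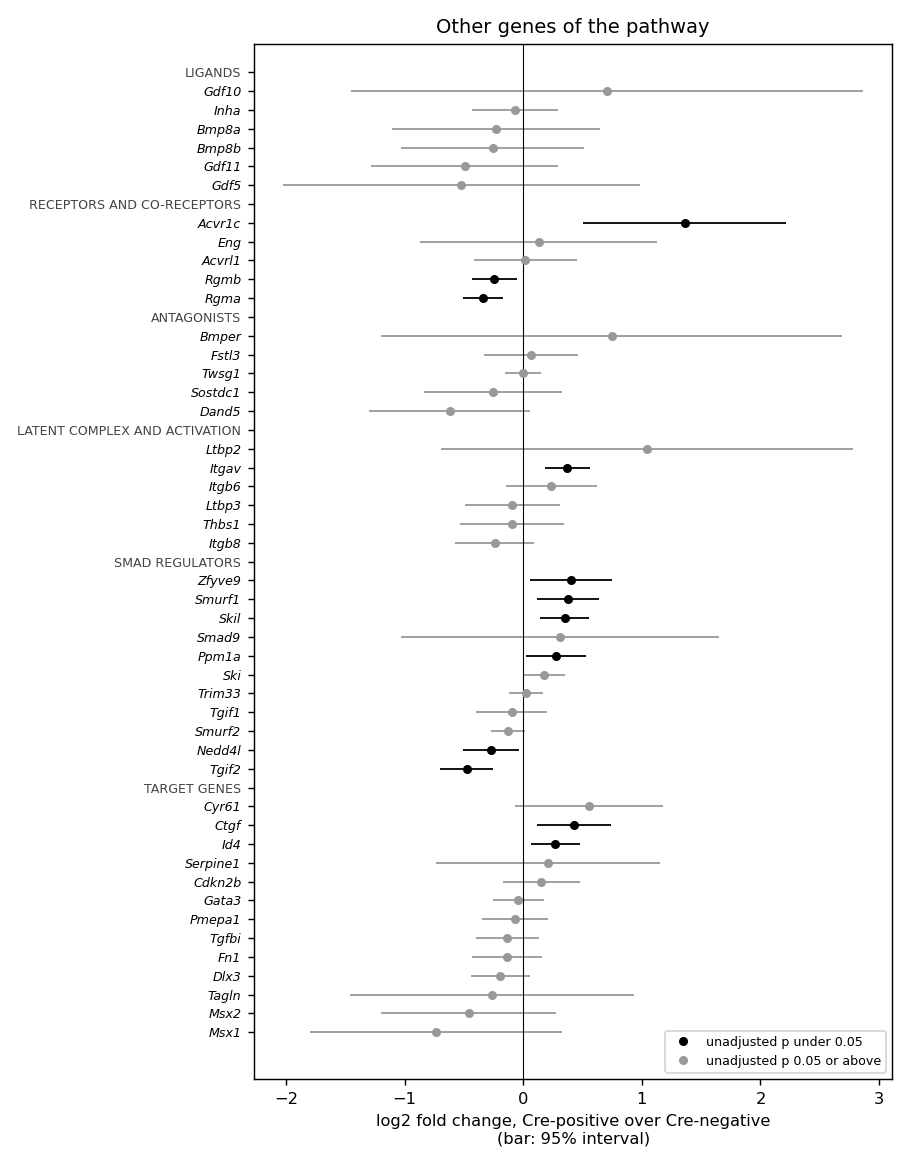
Log2 fold change of the 46 further pathway genes tested, Cre-positive over Cre-negative, with 95% intervals and grouped by role. None passed the threshold by edgeR; the genes in black had an unadjusted p under 0.05, with Acvr1c furthest to the right (1.36) and Tgif2 at -0.48.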

How the data were processed

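RNA was sequenced from 6 libraries of sorted CD49f+ epidermal cells, 3 per group, and the kit was directional, per the labels' protocols. The table that the authors deposited holds raw counts for each gene, not normalized, as the file headers and whole-number values show. The submitters' processing notes name GSNAP, featureCounts and the mm10 build. For versions, the strand setting and shared reads nothing is given in the sources used here. The exon length that the authors deposited beside each gene, in another column, gave the RPKM values. Symbols were matched for 37607 of 38924 identifiers, including all 40 members.

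Genes were kept by filterByExpr (minimum count 10), which left 15525. After TMM scaling of the counts, edgeR 4.0.16 (R 4.3.3) fitted the quasi-likelihood model; its p-values are two-sided and were adjusted by Benjamini-Hochberg over every gene that passed the filter. SE and 95% intervals come from that test. DESeq2 1.42.0 and limma-voom (limma 3.58.1), other scalings and filters, sex as a covariate and leaving out each library were alternatives. A floor of 3 counts was 0.0922 to 0.143 CPM and covers counting error only. Overlapping genes are named where they cover at least 5% of the exon length with a mean of at least 10 counts. The fits were tested on simulated counts. The marker Trdc was not matched. No 2 libraries of a group agreed within sampling noise.

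The members, lists and tests were chosen with earlier results of these data known. Every member is given; those with an unadjusted p under 0.05 and the most abundant of each role by RPKM have their values in full, and of the further pathway genes the 6 with the smallest p are named. Genes named beyond this rule were chosen after their values were seen.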

Additional observations from a re-analysis of the deposited data

How the results depend on the processing

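The fall of Nbl1 kept its direction under every alternative run, and its call ended in 6 of 13. The count of members past the threshold was 0 with total count scaling and 3 by DESeq2, and ran from 0 to 1 as single libraries were left out. For the further pathway genes DESeq2 called 5, and leaving out single libraries gave 0 to 4. Over all genes, 80 calls became 41 with total count scaling (27 higher and 14 lower, against 63 and 17), 847 by DESeq2, 142 with no filter beyond 1 count and 42 with sex as a covariate, and 0 to 422 as single libraries were left out: 422 without Cre-positive replicate 3 and 0 without Cre-negative replicate 1 or 2. The tests therefore rest on few libraries, and a member that did not pass is not shown to be equal.

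Total count scaling moved the median log2 fold change of all genes to -0.12, and with it the signs of Bmp7 (-0.12), Inhbb (-0.061), Tgfbr1 (-0.095), Bmpr1a (-0.037), Smad5 (-0.075) and Smad4 (-0.093). In limma-voom Bmp7 had -0.0080 and Tgfbr1 -0.00014, and with sex as a covariate Tgfbr1 had -0.089 and Fst -0.019. As single libraries were left out the sign also turned for Bmp7 (-0.16 to 0.085), Tgfbr1 (-0.078 to 0.13), Bmpr1b (-0.11 to 0.068), Acvr2b (-0.18 to 0.028), Fst (-0.030 to 0.34), Fstl1 (-1.08 to 0.38), Smad4 (-0.045 to 0.076) and Id2 (-0.098 to 0.36). None of these 11 genes was called. No paired analysis was possible because the labels give no replicate numbers that the groups share.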
